A study of Mus musculus with 12 samples.

Results

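The 10 genes described here are the G1 cyclins and CDK inhibitors of the raw count table: the D cyclins Ccnd1, Ccnd2 and Ccnd3, the kinases Cdk4 and Cdk6, cyclin G2 (Ccng2), and the inhibitors Cdkn1b, Cdkn2b, Cdkn2c and Cdkn2d. They were found by gene name, all 10 of 10 among the 54446 genes listed, and 9 of them were among the 14724 genes with enough counts to be tested. RNA-seq was performed on NIH3T3 cells, a line of mouse embryonic fibroblasts, in 4 groups of 3 samples. Wild-type cells and dNVEGF cells, in which both alleles of the N-VEGF coding stretch of Vegfa were deleted with CRISPR-Cas9, were each kept for 16 h in normoxia or in hypoxia (below 0.2% oxygen by the study's methods). The dNVEGF cells came from single clones that had carried drug resistance and mCherry cassettes, which VCre removed in some clones before sorting for cells without mCherry. The clone that was sequenced is not given in the sources used here, so the deletion and any other difference between a clone and its parent cannot be told apart. The design asks how each line responded to hypoxia, how the 2 lines differed in each condition, and whether their responses differed.

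Passage of a cell from G1 into S phase is driven by D cyclins, which bind CDK4 or CDK6 and phosphorylate the retinoblastoma protein, so that E2F factors can switch on the genes of DNA replication. The INK4 proteins (p15, p18 and p19 in mice, from Cdkn2b, Cdkn2c and Cdkn2d) bind CDK4 and CDK6 and keep the D cyclins off, whereas p27 (Cdkn1b) of the Cip/Kip family binds assembled cyclin and CDK complexes and blocks CDK2. Cyclin G2 is an unusual cyclin that accumulates in cells leaving the cycle and is a known target of FoxO factors.

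Counts on genes ranged from 30519052 to 43056690 per sample. Levels are given as scaled CPM, a sample's counts relative to its library total after TMM scaling. Genes with an adjusted p below 0.05 in edgeR's quasi-likelihood test count as called, and "rose" or "fell" is used of these alone. Wild-type normoxia replicate 2 stood apart from its group: its log2 CPM correlated with those of replicates 1 and 3 at r = 0.956 and 0.957, against 0.996 between those 2, and dNVEGF normoxia replicate 2 was the next most distant (r = 0.986 with both of its replicates). Test results of the members that rest on wild-type normoxia are therefore given with and without that sample. All 6 fibroblast markers were detected in every group, with a summed level of 10700 to 27000 CPM, and the 9 markers of epithelial, endothelial, blood and muscle cells summed to between 7.62 and 33.4 CPM. Epcam was at 0 in all samples, and Krt5, Ptprc and Myog stayed at or below 0.0685 CPM. Cdh5, an endothelial cadherin, was the marker that varied most, with 1.28 to 3.83 CPM in wild-type normoxia, 5.38 to 7.29 in wild-type hypoxia, 1.55 to 3.81 in dNVEGF normoxia and 19.4 to 24.4 in dNVEGF hypoxia, and its part in the results was not tested. All 10 known hypoxia genes used as a check of the oxygen labels rose in both lines. Vegfa itself had 39.4 to 86.2 CPM in wild-type normoxia, 272 to 291 in wild-type hypoxia, 34.2 to 37.3 in dNVEGF normoxia and 419 to 437 in dNVEGF hypoxia, but its count takes in reads from the whole gene and does not check the deletion.

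**Figure D1:**
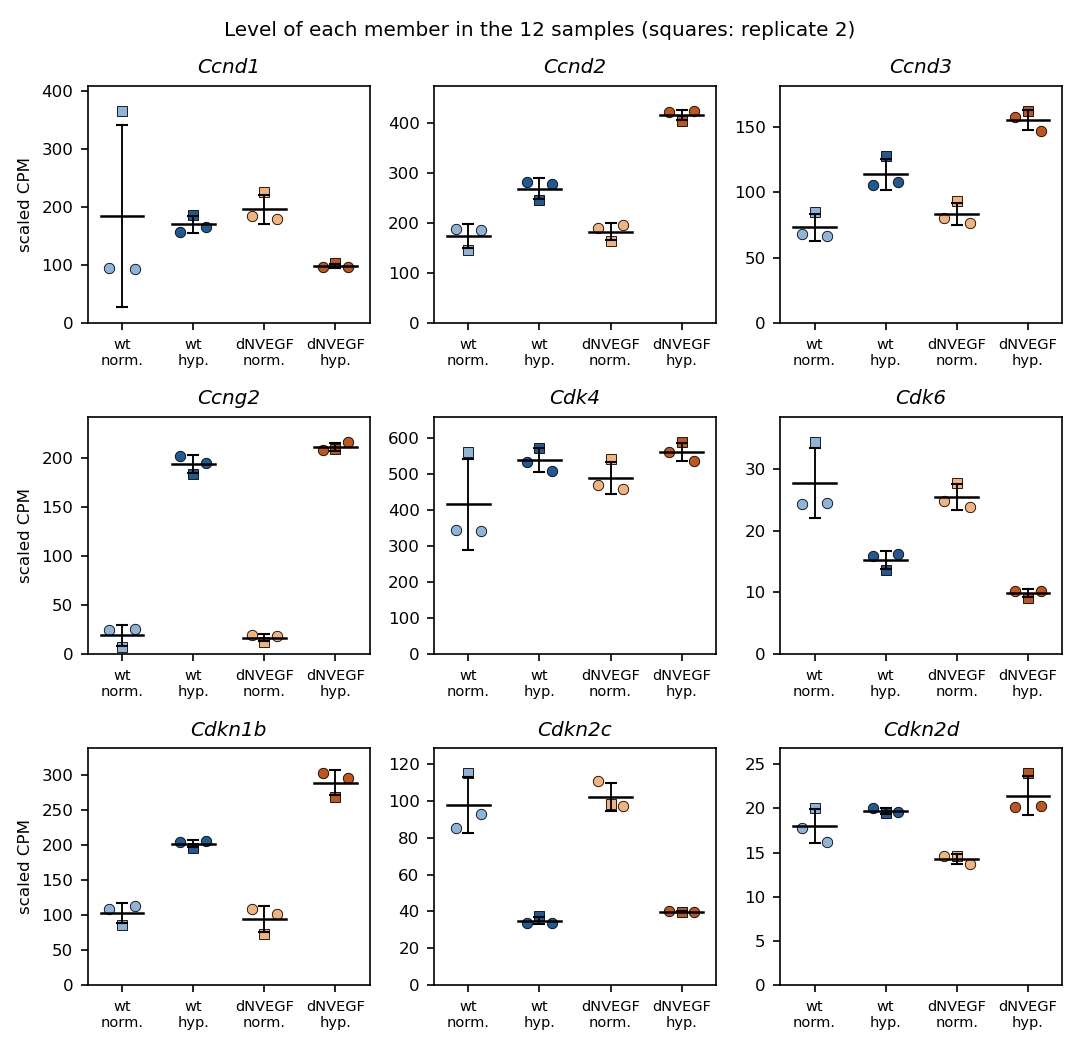
Scaled CPM of 9 of the genes in each of the 12 samples, with a panel per gene and a linear axis from 0. Points are samples, squares mark replicate 2, and lines with bars are the mean and SD of 3 samples. Ccnd1 in wild-type normoxia was at 95.1, 364.5 and 93.0 CPM, the widest spread relative to its mean, and Ccng2 was higher in every hypoxic sample than in any normoxic one.

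Cdk4 was the most abundant of the 10 transcripts in every group when levels were divided by exon length, and Cdk6 the least abundant of those detected. Per kilobase of exon, mean Cdk4 levels were 128 CPM in wild-type normoxia, 166 in wild-type hypoxia, 151 in dNVEGF normoxia and 173 in dNVEGF hypoxia, and those of Cdk6 were 1.98, 1.09, 1.82 and 0.707 in the same order. In normoxia Ccnd1 and Cdkn2c followed Cdk4, with 39.1 and 36.4 CPM per kilobase in wild-type cells and 41.6 and 38.0 in dNVEGF cells. The place of Ccnd1 in wild-type normoxia rested on replicate 2: over the other 2 samples its mean was 20 CPM per kilobase, below Cdkn2c (33.2) and Cdkn1b (24.4) and level with Ccnd2 (20). The samples of these neighbours overlapped, as did those of Cdkn1b and Ccnd2, the next in order, at 22.6 and 18.5 and at 20.8 and 19.5. In hypoxia Cdkn1b stood next after Cdk4 in both lines, with 44.4 CPM per kilobase in wild-type and 63.6 in dNVEGF cells. After it came Ccnd1 in wild-type hypoxia (36.1 CPM per kilobase) and Ccnd2 in dNVEGF hypoxia (44.3). In wild-type hypoxia the samples of Ccnd1 overlapped those of Ccng2, the next in order (35.5). Ccng2, which had the lowest level but that of Cdk6 in each normoxic group, at 3.47 and 3.08 CPM per kilobase, was at 35.5 and 38.6 in the hypoxic ones.

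Among the 9 tested genes, 4 rose and 2 fell with hypoxia in wild-type cells, where 18.2% of all tested genes rose and 18.3% fell. In dNVEGF cells 5 rose and 2 fell, against 26.9% and 26.4% of all tested genes. Ccnd2, Ccnd3, Ccng2 and Cdkn1b rose in both lines, Cdk6 and Cdkn2c fell in both, and Cdkn2d was called in dNVEGF cells. In bulk RNA, a smaller share of cells expressing a gene and less RNA per cell cannot be told apart. Both comparisons with hypoxia use samples of their own, and no control was shared between them. Without wild-type normoxia replicate 2, 8 of the 9 were called in wild-type cells (54% of all tested genes) and all 9 in dNVEGF cells (67.1%). The wild-type log2 fold changes of Ccnd2, Ccnd3, Cdkn1b, Cdk6 and Cdkn2c were then 0.53, 0.76, 0.87, -0.67 and -1.34, all still called, and that of Cdkn2d was 0.22 (adjusted p = 0.068).

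**Figure D2:**
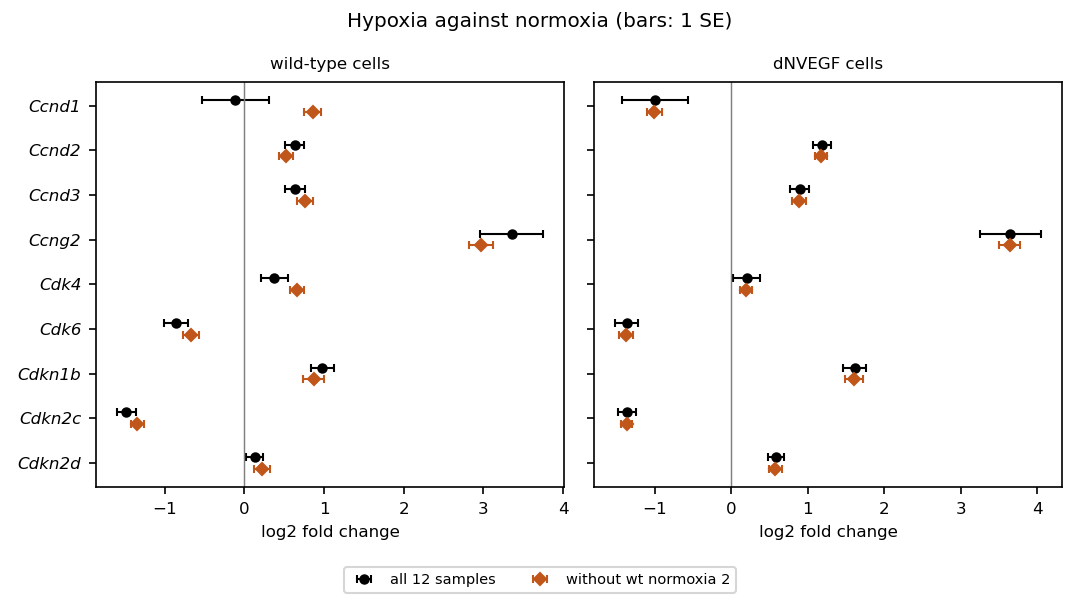
Log2 fold change of hypoxia against normoxia for 9 genes in wild-type cells (left) and dNVEGF cells (right), with bars of 1 SE. Black circles are the fit to all 12 samples and orange diamonds the fit without wild-type normoxia replicate 2. In wild-type cells Ccnd1 lay at -0.12 with that sample and at 0.86 without it, whereas Ccng2 lay near or above 3 in every case.

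Of the D cyclins, Ccnd2 and Ccnd3 rose with hypoxia while Ccnd1 was called in neither line in the fit used throughout. Ccnd1 (ENSMUSG00000070348, chr7:144929931-144939925, GRCm38.p6, minus strand) encodes the D cyclin that is classically induced by growth factors. Its levels were 95.1, 364.5 and 93.0 CPM in wild-type normoxia, 157.3, 186.7 and 165.4 in wild-type hypoxia, 184.6, 225.0 and 178.6 in dNVEGF normoxia and 96.6, 102.9 and 95.7 in dNVEGF hypoxia. The 3 wild-type hypoxia samples thus lay between the single high normoxic sample and the 2 low ones, and the dNVEGF groups did not overlap, with hypoxia the lower. In wild-type cells the log2 fold change was -0.12 (SE 0.42, adjusted p = 0.852), with a 95% interval from -1.04 to 0.81. It was 0.86 (SE 0.11, adjusted p = 1.9e-05) without wild-type normoxia replicate 2, so that 1 sample set both the direction and the call. In dNVEGF cells the log2 fold change was -0.99 (SE 0.43) and missed the threshold (adjusted p = 0.0699). It passed with total counts only (-1.39, adjusted p = 0.00748), with no filter on low counts (-1.09, 0.0195), with the replicate block (-0.97, 0.0422) and with only the samples compared (-1.02, 3.36e-05). Without wild-type normoxia replicate 2 it was -1.003 (adjusted p = 6.58e-07). That sample is in neither group compared and enters through the shared spread, the genes tested and the scaling. The dNVEGF value of Ccnd1 also passed without wild-type normoxia replicate 1 (adjusted p = 0.0392) or 3 (0.0375).

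Ccnd2 (ENSMUSG00000000184, chr6:127125162-127152193, minus strand) encodes the D cyclin best known from ovary, pancreatic islets and lymphocytes. It was measured at 188.9, 145.8 and 187.0 CPM in wild-type normoxia, 283.2, 245.6 and 279.0 in wild-type hypoxia, 190.0, 163.9 and 195.9 in dNVEGF normoxia and 421.9, 405.0 and 424.1 in dNVEGF hypoxia. Every hypoxic sample was above every normoxic one, and the dNVEGF hypoxia samples were above all others. The rise was 1.55-fold in wild-type cells (log2 0.63, SE 0.12, adjusted p = 0.00157) and 2.28-fold in dNVEGF cells (log2 1.19, SE 0.12, adjusted p = 1.11e-05). With total counts only, the wild-type value was 0.39 and the call ended (adjusted p = 0.0609). Ccnd3 (ENSMUSG00000034165, chr17:47505051-47599691, plus strand), the most widely expressed D cyclin, ranged from 66.5 to 85.1 CPM in wild-type normoxia, 105.7 to 127.7 in wild-type hypoxia, 76.7 to 93.4 in dNVEGF normoxia and 146.8 to 162.1 in dNVEGF hypoxia. It rose 1.55-fold in wild-type cells (log2 0.63, SE 0.12, adjusted p = 0.00216) and 1.86-fold in dNVEGF cells (log2 0.90, SE 0.12, adjusted p = 0.000123), and no hypoxic sample overlapped a normoxic one of its own line.

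The make-up of the D cyclin pool differed between groups. Ccnd1 took 27%, 61.2% and 26.8% of the D cyclin counts in the 3 wild-type normoxia samples, 28.8%, 33.3% and 29.9% in wild-type hypoxia, 40.6%, 46.7% and 39.6% in dNVEGF normoxia and 14.3%, 15.4% and 14.4% in dNVEGF hypoxia. Ccnd2 took 60.4% to 63.6% in dNVEGF hypoxia and 34.0% to 43.4% in dNVEGF normoxia. In wild-type cells it took 43.9% to 51.9% in hypoxia, and in normoxia 53.6%, 24.5% and 54.0%. In dNVEGF cells the Ccnd1 share was thus lower, and the Ccnd2 share higher, in every hypoxic sample than in any normoxic one, while in wild-type cells the ranges overlapped for Ccnd1 and Ccnd2 alike. Shares are of counts and the 3 genes differ in exon length, so they compare samples and not genes. They were described without a test.

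**Figure D3:**
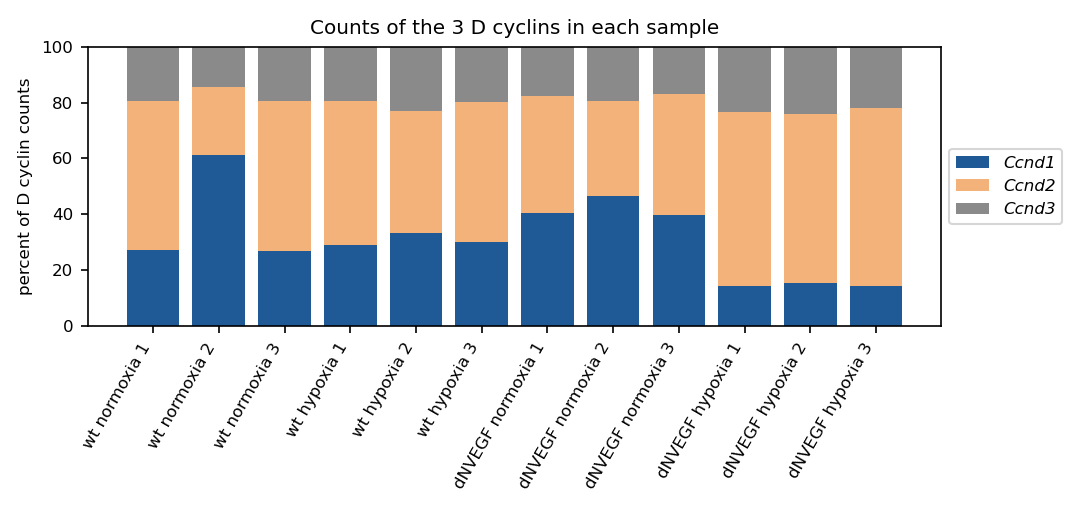
Percent of the summed D cyclin counts that fell on Ccnd1, Ccnd2 and Ccnd3 in each of the 12 samples, as stacked bars that reach 100. Ccnd1 took 14.3% to 15.4% in the dNVEGF hypoxia samples and 61.2% in wild-type normoxia replicate 2.

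The kinases that D cyclins activate went separate ways, with Cdk6 falling in both lines and no call for Cdk4. Cdk4 (ENSMUSG00000006728, chr10:127063534-127067920, plus strand) had 343.4, 560.9 and 342.4 CPM in wild-type normoxia, 534.8, 573.7 and 509.6 in wild-type hypoxia, 468.7, 540.9 and 457.9 in dNVEGF normoxia and 561.5, 588.1 and 537.0 in dNVEGF hypoxia. Wild-type normoxia replicate 2 lay within the hypoxic range and the other 2 well below it. The log2 fold change in wild-type cells was 0.38 (SE 0.17, adjusted p = 0.108) with all samples and 0.66 (SE 0.09, adjusted p = 3.18e-05) without that one, and it was 0.40 (adjusted p = 0.0349) with the replicate block. In dNVEGF cells it was 0.20 (SE 0.17, adjusted p = 0.344), with a 95% interval from -0.17 to 0.58, and 0.19 (SE 0.08, adjusted p = 0.0383) without wild-type normoxia replicate 2. Cdk6 (ENSMUSG00000040274, chr5:3341485-3531008, plus strand) had 24.3, 34.3 and 24.6 CPM in wild-type normoxia, 15.9, 13.7 and 16.3 in wild-type hypoxia, 24.8, 27.8 and 23.8 in dNVEGF normoxia and 10.3, 9.14 and 10.2 in dNVEGF hypoxia. All hypoxic samples lay below all normoxic ones, and those of dNVEGF cells were the lowest. Its log2 fold change was -0.86 in wild-type cells (SE 0.14, adjusted p = 0.000869) and -1.37 in dNVEGF cells (SE 0.15, adjusted p = 2.1e-05). The wild-type call ended (adjusted p = 0.0621) with the replicate block in a fit to only those samples.

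The upstream stretches of Cdk4, Cdk6 and Ccnd3 are shown because Cdk4 and Cdk6 hold CACGTG, 4 times in Cdk4, and Ccnd3 the FoxO sequence. Motifs were looked for on both strands in the 250 bases before each RefSeq start (GRCm38.p6), with ACGTG and GCGTG as cores of the hypoxia response element, GTAAACA for FoxO factors and TTTCGCGC, TTTGGCGC and TTTCCCGC for E2F. RefSeq promoters were matched for 8 of the 10 genes, with 2 starts each for Ccnd3 and Cdkn2c, and none was matched for Ccnd1 and Ccnd2. Capitals mark the matches, each CACGTG holding ACGTG on both strands. The window of Cdk4 has 4 of them, and its stretch ends 2 bases before the RefSeq start.
Cdk4, chr10:127063285-127063533, plus strand: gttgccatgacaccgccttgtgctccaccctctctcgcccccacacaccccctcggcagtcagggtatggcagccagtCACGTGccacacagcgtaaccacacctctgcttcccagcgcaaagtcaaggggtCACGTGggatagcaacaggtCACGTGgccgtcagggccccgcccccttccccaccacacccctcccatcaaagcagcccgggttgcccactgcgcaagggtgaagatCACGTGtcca
Cdk6, chr5:3343661-3343690, plus strand: gttctgcggcccCACGTGggtgaacccccg
Ccnd3, chr17:47504801-47504830, plus strand: ggtctacTGTTTACttcctgggcagcgttc
ACGTG was present in 3 of the 10 member windows and in 16.6% of 32851 RefSeq windows, and GCGTG in 7 of 10 and in 28.2%. GTAAACA was found in 1 of 10, the Ccnd3 window shown, and in 3.17% of all, and no member window held any of the E2F sequences, which 0.256%, 0.417% and 0.895% of all windows held. Of the 3 genes shown, Ccnd3 rose and Cdk6 fell with hypoxia, and the call for Cdk4 varied between fits, as given above. A match is a stretch of letters and not evidence of binding.

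Cyclin G2 showed the widest response of the 10. Ccng2 (ENSMUSG00000029385, chr5:93267257-93276231, plus strand) had 24.2, 6.99 and 25.6 CPM in wild-type normoxia, 202.3, 183.4 and 195.0 in wild-type hypoxia, 19.1, 12.5 and 18.8 in dNVEGF normoxia and 207.6, 209.2 and 215.7 in dNVEGF hypoxia. The groups were far apart, and the lowest normoxic value in each line was that of replicate 2. Ccng2 rose 10.2-fold in wild-type cells (log2 3.35, SE 0.39, adjusted p = 6.75e-05) and 12.5-fold in dNVEGF cells (log2 3.65, SE 0.40, adjusted p = 2.2e-05), and without wild-type normoxia replicate 2 the log2 values were 2.96 (SE 0.15) and 3.64 (SE 0.13). The 3 genes whose log2 CPM followed Ccng2 most closely over the 12 samples, of 8520 genes with a mean of at least 10 CPM, were Eno2 (r = 0.999), an enolase of glycolysis, Rhobtb1 (0.996) and Car9 (0.995), a carbonic anhydrase induced by hypoxia. These correlations describe samples that fall into 2 oxygen conditions.

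Cdkn1b (ENSMUSG00000003031, chr6:134920401-134925513, plus strand), which encodes p27, rose with hypoxia in both lines. It had 109.0, 86.1 and 113.0 CPM in wild-type normoxia, 204.6, 196.1 and 205.5 in wild-type hypoxia, 108.7, 73.6 and 101.4 in dNVEGF normoxia and 302.6, 269.4 and 296.5 in dNVEGF hypoxia. The hypoxic samples lay above all normoxic ones, and replicate 2 was the lowest of each group. The rise was 1.97-fold in wild-type cells (log2 0.98, SE 0.15, adjusted p = 0.000414) and 3.06-fold in dNVEGF cells (log2 1.61, SE 0.15, adjusted p = 6.61e-06). Rcor1 (r = 0.996), a corepressor subunit, Utrn (0.995), which encodes utrophin, and C9orf72 (0.995) followed it most closely over the 12 samples.

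The INK4 inhibitors did not move together. Cdkn2c (ENSMUSG00000028551, chr4:109660876-109667189, minus strand), which encodes p18, had 85.5, 114.9 and 92.7 CPM in wild-type normoxia, 33.9, 37.4 and 33.6 in wild-type hypoxia, 111.0, 98.4 and 97.3 in dNVEGF normoxia and 40.1, 39.6 and 39.8 in dNVEGF hypoxia. No normoxic sample came below 85.5 CPM and no hypoxic one above 40.1. Its log2 fold change was -1.48 in wild-type cells (SE 0.11, adjusted p = 3.29e-06) and -1.36 in dNVEGF cells (SE 0.11, adjusted p = 3.31e-06), 2.79-fold and 2.56-fold lower. Its closest genes over the samples were Ttc7, Ints4 and 1700021F05Rik, each at r = 0.987. Cdkn2d (ENSMUSG00000096472, chr9:21288410-21291407, minus strand), which encodes p19, had 17.8, 20.1 and 16.2 CPM in wild-type normoxia, 20.1, 19.5 and 19.7 in wild-type hypoxia, 14.6, 14.7 and 13.7 in dNVEGF normoxia and 20.1, 24.0 and 20.3 in dNVEGF hypoxia. The wild-type groups overlapped and the dNVEGF groups did not. In wild-type cells the log2 fold change was 0.13 (SE 0.11, adjusted p = 0.374, 95% interval -0.11 to 0.37), and in dNVEGF cells Cdkn2d rose 1.5-fold (log2 0.58, SE 0.11, adjusted p = 0.000956). That call ended with total counts only (0.18, adjusted p = 0.115).

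Cdkn2b (ENSMUSG00000073802, chr4:89306299-89311039, minus strand), which encodes p15, had 0 counts in all 12 samples. A count of 0 allows up to 3 counts, between 0.0697 and 0.0983 CPM of total counts across the samples, by counting error alone, and the gene was not tested. Cdkn2a, its neighbour on the chromosome and the gene for p16 and p19ARF, also had 0 counts in all 12. No statement on hypoxia can be made for either.

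Stretches of 30 bases from the Ccng2 and Cdkn2c windows, both inside annotated exons, and the whole window of Cdkn1b are shown because Ccng2 and Cdkn1b had the largest rises in dNVEGF hypoxia and Cdkn2c the largest fall in wild-type hypoxia. In dNVEGF cells the falls of Cdk6 (-1.37) and Cdkn2c (-1.36) were nearly equal. Capitals mark GCGTG, or CACGC where the match is on the opposite strand.
Ccng2, chr5:93267512-93267541, plus strand: tccgcgcgcagtCACGCgccccgccccttg
Cdkn2c, chr4:109666783-109666812, minus strand: gcgttgggcgggGCGTGggcggggcccggc
Cdkn1b, chr6:134920151-134920400, plus strand: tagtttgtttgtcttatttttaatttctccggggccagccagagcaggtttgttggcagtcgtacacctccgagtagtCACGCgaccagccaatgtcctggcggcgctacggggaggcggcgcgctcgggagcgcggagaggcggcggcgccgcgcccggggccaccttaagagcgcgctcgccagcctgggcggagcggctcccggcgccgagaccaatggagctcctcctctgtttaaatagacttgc
The matches began 49 bases before the start in Ccng2, 44 in Cdkn2c and 172 in Cdkn1b. Cdkn2c also held ACGTG 123 and 100 bases before its other start. Genes with a match thus included ones that rose, Cdkn2c and Cdk6, which fell, Cdk4, whose call varied between fits, and Cdkn2b, which was at 0 with GCGTG 9 bases before its start. All windows were read from the reference genome, so whether these cells carry the Cdkn2b site is not known here.

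The lines were next compared within each condition. In normoxia 0 of the 9 genes was called between dNVEGF and wild-type cells by edgeR or by DESeq2, and 1, Cdkn2d, had an unadjusted p below 0.05 in edgeR. Of all tested genes 1.39% were higher in dNVEGF cells and 2.97% lower by edgeR, and DESeq2 called 8.16% of the genes it tested. Intervals were wide: the log2 difference of Ccnd1 was 0.09 (95% interval -0.84 to 1.02), that of Ccng2 -0.17 (-0.97 to 0.62) and that of Cdk4 0.24 (-0.14 to 0.61). Those of Ccnd2, Ccnd3, Cdk6, Cdkn1b and Cdkn2c lay between -0.12 and 0.19. Cdkn2d was the gene whose samples did not overlap, lower in dNVEGF cells at -0.33 (SE 0.11, adjusted p = 0.116). With that group's replicate 2 left out of the wild-type samples, 5 of the 9 were called, along with 48.9% of all tested genes. Ccnd1 was then higher in dNVEGF cells by 1.07 (SE 0.11, adjusted p = 1.15e-05), Cdk4 by 0.53 (adjusted p = 0.00034), Ccnd3 by 0.32 (0.0207) and Cdkn2c by 0.21 (0.045), while Ccng2 was lower, at -0.56 (SE 0.14, adjusted p = 0.00535). Not called were Cdkn2d at -0.24 (adjusted p = 0.0563), Cdkn1b at -0.22 (0.168), Cdk6 at 0.072 (0.579) and Ccnd2 at -0.025 (0.838).

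In hypoxia 4 of the 9 were called between the lines, 3 of them higher in dNVEGF cells and 1 lower, where 10.8% of all tested genes were higher and 9.36% lower. Ccnd2 was higher by 0.63 on the log2 scale (SE 0.12, adjusted p = 0.00426), Cdkn1b by 0.52 (SE 0.15, adjusted p = 0.0297) and Ccnd3 by 0.45 (SE 0.12, adjusted p = 0.0263). Cdk6 was lower, at -0.63 (SE 0.15, adjusted p = 0.0129). Ccnd1 was measured at 95.7 to 102.9 CPM in dNVEGF and 157.3 to 186.7 in wild-type hypoxia, without overlap, but its log2 difference of -0.79 missed the threshold in the fit that shares the spread of all 12 samples (SE 0.43, adjusted p = 0.225). The difference passed without wild-type normoxia replicate 2 (adjusted p = 3.01e-05) and when only the 6 hypoxic samples were fitted (2.85e-08). The log2 differences of Ccng2, Cdk4, Cdkn2c and Cdkn2d, none of them called, were 0.12, 0.06, 0.19 and 0.12. In the fit to only the 6 hypoxic samples Cdkn2c was also called (adjusted p = 0.022), where 57% of all tested genes were called. With the replicate block in that fit, an alternative chosen after seeing the data, Cdkn2c (0.00948) and Ccng2 (0.039) were called, beside 61.1% of all. The calls for Ccnd3 and Cdkn1b ended in 5 and 6 of the 6 fits that each left out 1 hypoxic sample, and that for Cdk6 in 3, with the same sign throughout, whereas Ccnd2 stayed called in all 6. When libraries were scaled by total counts only, calls were lost for Ccnd2 (0.41, adjusted p = 0.074), Ccnd3 (0.23, 0.0834) and Cdkn1b (0.30, 0.254), and with no filter on low counts for Ccnd3 (adjusted p = 0.053). In all, 5 of the 9 were called without wild-type normoxia replicate 2 (42.4% of all tested genes), the 4 above and Ccnd1.

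**Figure D4:**
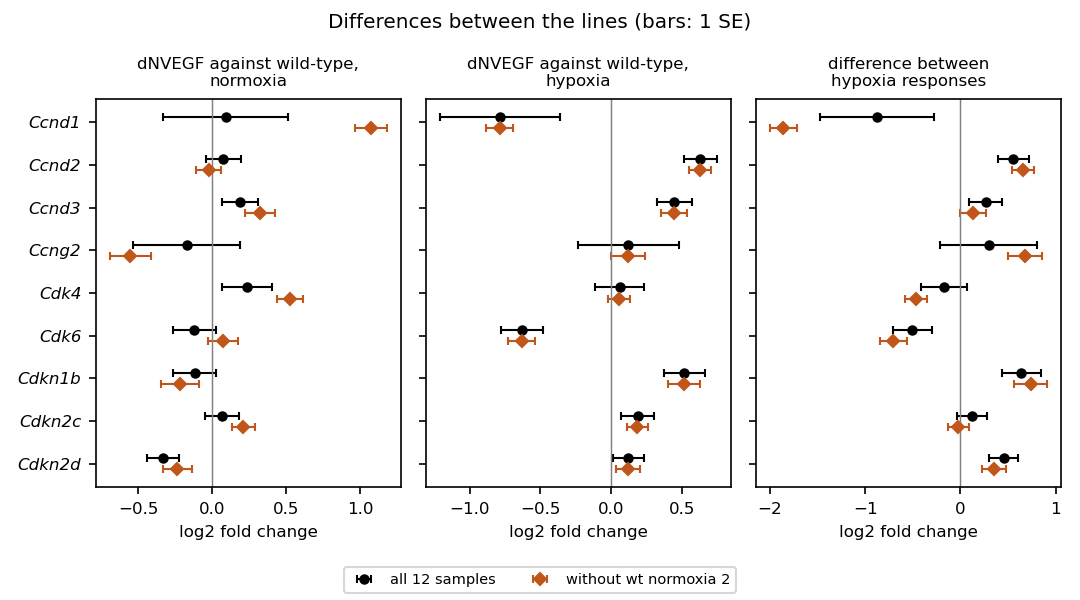
Log2 difference between dNVEGF and wild-type cells for 9 genes in normoxia (left) and hypoxia (middle), and the difference between their hypoxia responses (right), with bars of 1 SE and an axis of its own for each panel. Black circles are the fit to all 12 samples and orange diamonds the fit without wild-type normoxia replicate 2. The difference between the responses of Ccnd1 moved from -0.88 to -1.86 when that sample was left out.

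The difference between the hypoxia responses, tested as an interaction in which a positive value means a higher response in dNVEGF cells, was called for 0 of the 9 genes in edgeR, while 3.36% of all tested genes were called in either direction. Unadjusted p-values in edgeR were below 0.05 for 4 (Ccnd2, Cdk6, Cdkn1b and Cdkn2d), and the share of all genes below it was not counted. DESeq2 called 2, Ccnd2 (adjusted p = 0.0173) and Cdkn1b (0.0424), beside 10.7% of the genes it tested. With the replicate number as a block, edgeR called 1, Ccnd2 (adjusted p = 0.0409), beside 3.29% of all tested genes. The edgeR values were 0.56 for Ccnd2 (SE 0.17, adjusted p = 0.0898), 0.64 for Cdkn1b (SE 0.21, adjusted p = 0.112), 0.46 for Cdkn2d (SE 0.15, adjusted p = 0.123) and -0.51 for Cdk6 (SE 0.21, adjusted p = 0.189). For Ccnd1 the difference was -0.88 (SE 0.60, adjusted p = 0.436, 95% interval -2.19 to 0.44), and for Ccnd3, Ccng2 and Cdk4 it was 0.26, 0.30 and -0.17 (adjusted p = 0.421, 0.774 and 0.715). When wild-type normoxia replicate 2 was left out, 7 of the 9 were called, as were 44.4% of all tested genes. Ccnd1 led with -1.86 (SE 0.14, adjusted p = 1.03e-06), followed in size by Cdkn1b at 0.74, Cdk6 at -0.71, Ccng2 at 0.68, Ccnd2 at 0.65, Cdk4 at -0.47 and Cdkn2d at 0.36. The values for Cdkn2c were 0.12 with all samples and -0.02 without that one, with adjusted p = 0.696 and 0.882. Ccnd3 was at 0.13 without that sample (adjusted p = 0.468).

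Samples of one group differed in cell cycle genes together with these members. The median of 12 S phase genes, as log2 CPM minus each gene's mean over the 12 samples, was -0.38, 1.70 and -0.45 in wild-type normoxia and 0.88, 1.58 and 0.91 in dNVEGF normoxia, and that of 12 mitosis genes was 0.23, 1.79 and 0.29 and then 0.96, 1.11 and 1.05. Replicate 2 was the highest on both lists in both groups, and it was also the highest of its group for Ccnd1, Ccnd3, Cdk4 and Cdk6 and the lowest for Ccnd2, Ccng2 and Cdkn1b. In hypoxia the S phase list lay between -0.12 and -0.04 in wild-type samples and between -1.24 and -1.20 in dNVEGF samples. Over the 12 samples, the genes closest to Ccnd1 were Gtse1 (r = 0.985), a gene of G2 and S phase, Emg1 (0.980) and Ppp1ca (0.979), and r was 0.974, 0.967 and 0.963 without wild-type normoxia replicate 2. The part of the cell cycle state of a sample in its member levels was not tested.

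**Figure D5:**
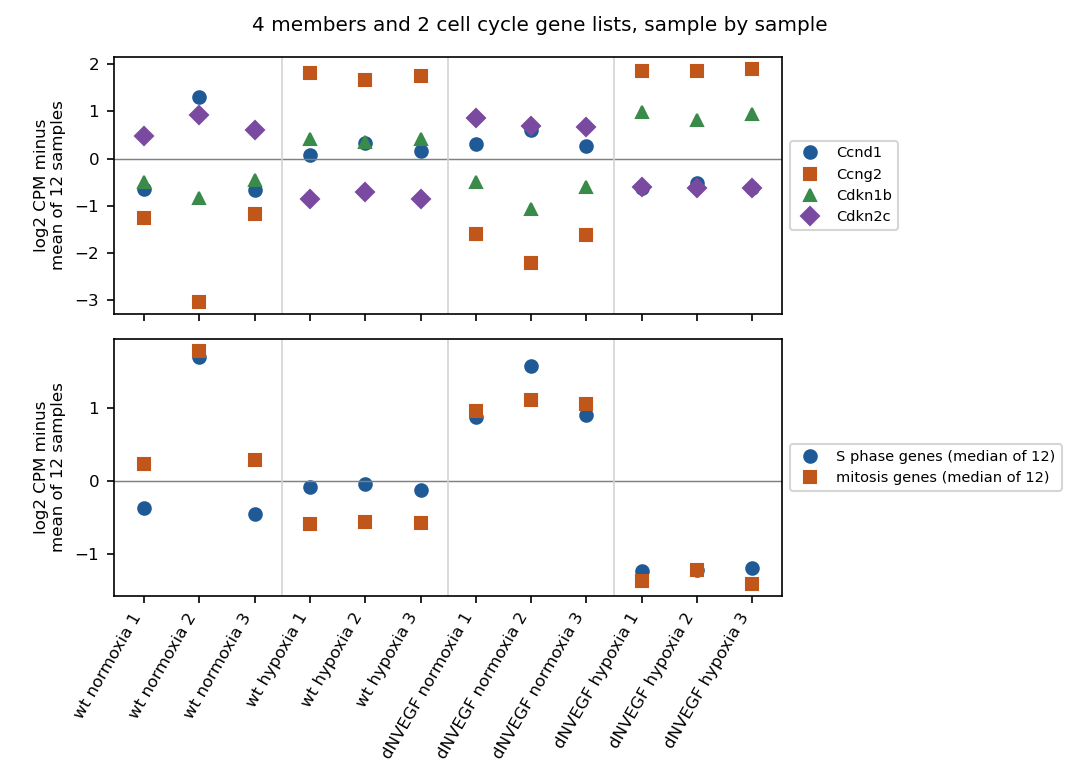
Log2 CPM minus the mean of the 12 samples for Ccnd1, Ccng2, Cdkn1b and Cdkn2c (top) and the median of the same quantity over 12 S phase and 12 mitosis genes (bottom), with a point per sample and grey lines between groups. Wild-type normoxia replicate 2 had the highest point of both lists, 1.70 and 1.79, and the lowest of Ccng2.

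The other genes of the pathway, 43 in 7 lists of which 40 were tested, were called downwards more often than upwards in dNVEGF hypoxia, and in wild-type hypoxia the balance rested on 1 sample. In wild-type cells 4 rose and 11 fell, with a median log2 fold change of -0.34 where the median of all tested genes was -0.07, and 18.2% of all tested genes rose and 18.3% fell. In dNVEGF cells 5 rose and 20 fell, with a median of -0.45 against -0.01, where 26.9% of all tested genes rose and 26.4% fell. Leaving out wild-type normoxia replicate 2, the wild-type counts were 12 up and 12 down with a median of 0.01, and the dNVEGF counts 7 and 24 with a median of -0.46, while 54% and 67.1% of all tested genes were called. Cdkn1a, which encodes p21 of the same family as p27, had the widest rise among them, with a log2 fold change of 3.54 in wild-type cells (adjusted p = 1.8e-07) and 3.79 in dNVEGF cells (5.46e-08). Foxo3, a FoxO factor, rose by 1.65 (adjusted p = 0.00293) and 2.86 (5.41e-05), the first value being 1.27 without wild-type normoxia replicate 2. Skp2, the F-box protein that marks p27 for destruction, fell by 1.04 (adjusted p = 0.0172) and by 2.60 (4.65e-05), with a wild-type value of -0.45 (adjusted p = 0.00115) without that sample. Ccna2, cyclin A2, fell by 1.30 in wild-type cells with an adjusted p of 0.0495, and by 2.83 in dNVEGF cells (adjusted p = 0.000658). Its wild-type value was -0.20 (adjusted p = 0.124) without wild-type normoxia replicate 2. With all samples, the other genes of these lists that passed the test with at least a 2-fold change did so in dNVEGF cells. Leaving out wild-type normoxia replicate 2, Ccne2 (cyclin E2), Mybl2, E2f7 and E2f1 also passed in wild-type cells, higher in hypoxia by 3.01, 1.76, 1.17 and 1.11 on the log2 scale. In dNVEGF cells Gsk3b, a kinase that marks cyclin D1 for export and breakdown, rose by 1.53. The log2 fold change was -3.75 for Ccne1, cyclin E1, -2.35 for the pocket protein gene Rbl1, -1.75 and -1.54 for the DREAM subunits Lin54 and Lin9, -2.07 for the MuvB partner Mybl2 and -1.39 for the CDK-activating phosphatase Cdc25a. It was -2.90 for E2f2, -2.88 for E2f8, -1.32 for Tfdp1 and -1.14 for E2f7, all factors of the E2F and DP families.

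Between the lines in hypoxia, 2 of the 40 pathway genes were higher and 6 lower in dNVEGF cells, against 10.8% and 9.36% of all tested genes. These counts were 9 and 17 without wild-type normoxia replicate 2, where 42.4% of all were called. Ccne1 was at -2.05 (adjusted p = 0.0176), E2f2 at -1.79 (0.000512), E2f8 at -1.52 (0.0493), Skp2 at -1.41 (0.00892) and Rbl1 at -1.08 (0.0483) on the log2 scale. In normoxia 0 were higher and 1 lower (Fbxo4, at -0.43), and leaving out wild-type normoxia replicate 2 gave 24 higher and 7 lower, with 48.9% of all tested genes called. The interaction was called for 2 of the 40, E2f2 at -1.91 and Gsk3b at 0.77, the latter and Fbxo4 named after their values were seen, near the 3.36% of all tested genes, and without that sample 8 were higher and 22 lower, where 44.4% of all were called.

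Several members share exon stretches with genes on the opposite strand, and the TruSeq RNA v2 kit does not mark strand, so reads there cannot be told apart. The shared stretch was 23.4% of the exon length of Ccnd1 (with Oraov1, which had at most 523 counts in a sample) and 19.7% of that of Cdk4 (with Tspan31, at most 9615 counts), and 4.11% of that of Ccnd3 (with Bysl, at most 5241). For Ccnd2 and Cdk6 the genes sharing exons had at most 7 counts. No such overlap was annotated for Ccng2, Cdkn1b, Cdkn2b, Cdkn2c or Cdkn2d.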

How the data were processed

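RNA-seq of 12 samples was used, 3 in each of 4 groups, grouped by the submitters' labels. The deposited values are raw read counts per gene. By the study's methods and the submitters' processing notes, the authors prepared TruSeq RNA v2 libraries, trimmed single reads with Trim Galore and cutadapt 1.10, aligned them to GRCm38.p6 with TopHat2 2.1.0 and counted them with HTSeq 0.6.1, whose strand setting is not given in the sources used here.

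The test was that of edgeR 4.0.16, run in R 4.3.3 on the counts (TMM scaling, filterByExpr, 1 mean per group over all 12 samples, quasi-likelihood F test, Benjamini-Hochberg adjustment over 14724 genes, threshold 0.05). DESeq2 1.42.0 was an alternative, and the code was tested on simulated data. Log2 CPM used a prior count of 2. Exon lengths came from GENCODE M21 (GRCm38), whose coordinates matched those in the table for all 10 genes. The members and gene lists were chosen with earlier results of these data known. The members are described in each comparison, and the fit without wild-type normoxia replicate 2 tested 15145 genes. Other pathway genes are given as counts, and by name where the adjusted p was below 0.05 and the fold at least 2. For Ccnd1, Ccng2, Cdkn1b and Cdkn2c, the 3 most correlated genes are named. Cdkn2a, the markers and the hypoxia check genes come from the same lists. The S phase and mitosis genes named in the closing section were chosen after their values were seen.

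The labels do not say that samples came from separate cultures, so p-values measure the spread between these samples, which may be technical. No 2 samples of a group agreed within sampling noise. For pairing, each sample was centred on its group. Centred values of samples sharing a number correlated at 0.378, 0.498 and 0.355 between the normoxic groups, over 0.1 in each pair. The best match bore the same number for 2 of the wild-type samples. Replicate 2 was the most distant sample of both groups, so the centred values of replicates 1 and 3 both point away from it. These correlations therefore cannot show how the other samples pair, and the labels name no pairs. In the other comparisons at least 1 pair was below 0.1.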

Additional observations from a re-analysis of the deposited data

Results flagged for a closer look

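A pair of genes outside the 10 members was singled out because the test of the difference between the hypoxia responses passed at an adjusted p below 0.05 in edgeR's fit to all 12 samples, with at least a 2-fold difference. E2f2, an E2F factor, had 4.88, 8.31 and 4.99 CPM in wild-type normoxia and 2.93, 2.91 and 3.29 in wild-type hypoxia. In dNVEGF cells it had 6.57, 6.70 and 6.52 CPM in normoxia and 0.908, 0.869 and 0.859 in hypoxia, below all other samples. The difference between its responses was -1.913 on the log2 scale (SE 0.29, adjusted p = 0.00889), and -2.22 without wild-type normoxia replicate 2. For Vegfa, the gene that holds the deleted stretch, the difference was 1.574 (adjusted p = 0.0281), and 1.84 without that sample. Groups of 3 samples were too small for the check on single distant samples.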

How the results depend on the processing

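The 6 calls in wild-type hypoxia and 7 in dNVEGF hypoxia stayed within 1.5 times under every alternative but one, a fold change of at least 2, which left 2 in wild-type cells. That threshold left 15.7% of all tested genes called in wild-type hypoxia. It left 0 of the 4 calls between lines in hypoxia, where 6.81% of all stayed called. Leaving out each sample in turn, calls ranged from 0 to 5 between lines in normoxia, from 1 to 5 in hypoxia and from 0 to 7 for the interaction, the highest in each case without wild-type normoxia replicate 2. The share of all tested genes called ranged from 1.1% to 48.9%, from 10.1% to 42.4% and from 0.493% to 44.4% in the same order. The lowest hypoxic counts, 1, came without wild-type hypoxia replicate 1 or 3 or dNVEGF hypoxia replicate 2, and 2 remained called without dNVEGF hypoxia replicate 1 or 3. With both normoxia samples numbered 2 left out, calls were 6, 7 and 7 in these 3 comparisons, beside 53.6%, 55.8% and 52.8% of all tested genes. DESeq2 called 2 members for the interaction, beside 10.7% of the genes it tested. Over all tested genes, the interaction had 495 calls, 1492 in DESeq2 and 903 with total counts only, and the lines in normoxia had 642, 1369 in DESeq2 and 15 with only the samples compared. With only the samples compared, calls over all genes were 3366 against 5372 in wild-type hypoxia and 7896 against 2961 between lines in hypoxia.

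Total counts without TMM scaling moved the median log2 fold change of all genes from -0.07 to -0.30 in wild-type hypoxia, from -0.01 to -0.41 in dNVEGF hypoxia and from -0.01 to -0.24 between lines in hypoxia, and the share of calls that were higher from 49.8% to 28.2%, 50.5% to 25.6% and 53.5% to 17.1%. Members called were then 3 up and 2 down, 4 up and 3 down, and 0 up and 1 down, beside 45.6%, 59.8% and 26.8% of all tested genes. The interaction had 1 call, Cdk6, beside 6.13% of all. Directions turned for Cdkn2d in wild-type hypoxia (-0.089), Cdk4 in dNVEGF hypoxia (-0.20), Ccng2 (-0.10), Cdk4 (-0.16), Cdkn2c (-0.031) and Cdkn2d (-0.10) between lines in hypoxia, and Cdkn2c for the interaction (-0.065), none of them a call in either fit.

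With the replicate block, 7, 8, 0 and 4 members were called in the 4 comparisons of groups, beside 38.6%, 55.5%, 4.37% and 22% of all tested genes. Cdk4 was added in wild-type and Ccnd1 in dNVEGF hypoxia. For the interaction 1 was called, Ccnd2 (0.56, adjusted p = 0.0409), beside 3.29% of all tested genes. Ccnd1 in wild-type hypoxia was 0.084 with the block. With the replicate block in a fit to only the samples compared, an alternative chosen after seeing the data, 5, 9, 0 and 7 members were called. Of all tested genes 13.3%, 66.2%, 0.00718% and 61.1% were called in these fits. Ccnd1 in wild-type hypoxia was then 0.19 and Ccng2 between lines in normoxia 0.006. With both normoxia samples numbered 2 left out, Ccnd1 in wild-type hypoxia was 0.86, Cdk6 in normoxia 0.004 and Cdkn2c for the interaction -0.047.

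Leaving out each sample in turn, log2 values that changed sign ranged from -0.44 to 0.86 for Ccnd1 in wild-type hypoxia. Between cell types in normoxia they ranged from -0.23 to 1.07 for Ccnd1, -0.56 to 0.11 for Ccng2, -0.021 to 0.21 for Cdkn2c, -0.025 to 0.16 for Ccnd2, -0.21 to 0.072 for Cdk6 and -0.22 to 0.039 for Cdkn1b, and for Cdkn2c in the interaction from -0.023 to 0.21. The cause was not tested. Scaling by RLE size factors and at least 10 counts in every sample changed no call.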

Other observations

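Genes of DNA replication fell with hypoxia in dNVEGF cells. Of 12 S phase genes, which include the MCM helicase subunits, Pcna and Rrm2, 12 fell in dNVEGF cells (26.4% of all tested genes fell) with a median log2 fold change of -2.39. By edgeR 0 were called in wild-type cells (median -0.74), where 18.3% of all fell. With wild-type normoxia replicate 2 left out, the wild-type counts were 5 higher and 0 lower with a median of 0.35, and 54% of all tested genes were called. The test of the difference was called for 0 of the 12 with all samples and for 12 without that one, against 3.36% and 44.4% of all. Rrm2, a ribonucleotide reductase subunit, fell by 3.90 on the log2 scale in dNVEGF cells (SE 0.70, adjusted p = 0.000738), and Mcm5 by 2.94 (SE 0.64, adjusted p = 0.00258).

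Of 12 mitosis genes, 10 fell in wild-type hypoxia (median log2 fold change -1.48) and 12 in dNVEGF hypoxia (median -2.47), beside the same 18.3% and 26.4% of all tested genes. Plk1, a mitotic kinase, fell by 2.72 (adjusted p = 0.00156) and 2.98 (0.00055), and Ccnb1, cyclin B1, by 2.49 (0.00214) and 2.89 (0.000553). Without wild-type normoxia replicate 2 the wild-type values were -1.59 for Plk1 and -1.41 for Ccnb1. Between the lines in hypoxia 0 were higher and 3 lower (9.36% of all tested genes were lower), among them Mki67 at -1.32 (adjusted p = 0.0178). With wild-type normoxia replicate 2 left out, 0 were higher and 11 lower (median -0.71), where 42.4% of all were called. In wild-type hypoxia 9 then fell and 1 rose, with a median of -0.86, beside 54% of all. The difference between the responses was called for 0 of the 12 with all samples (3.36% of all). Without that one it was called for 12 (44.4%).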
